A study of Mus musculus with 2 samples.

Results

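Free fatty acids and their coenzyme A (CoA) esters are poorly soluble and can damage membranes, so cells move them bound to small carrier proteins. Fatty acid binding proteins (FABPs) hold free fatty acids in a closed barrel, the acyl-CoA binding proteins hold long-chain acyl-CoA, and sterol carrier protein 2 (SCP2) brings sterols, phospholipids and acyl-CoA to membranes and peroxisomes. In the subventricular zone (SVZ), FABP7 and FABP5 are known as proteins of radial glia, neural stem/progenitor cells (NSPCs) and astrocytes. The 8 genes described here, *Fabp3*, *Fabp5*, *Fabp7*, *Dbi*, *Acbd3*, *Acbd5*, *Acbd6* and *Scp2*, were taken from a list of names and not from their values. Of these, 7 were among the 15046 genes of the count table, and *Fabp3* was not analysed here.

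The cells were cultured NSPCs from the SVZ of 6- to 8-week-old male C57/Bl6 mice, kept through at least 5 passages with EGF and FGF-2 and made into 1 stable line carrying PLIN2-GFP, a fusion of GFP with a protein that coats lipid droplets (LDs). Every cell was therefore of the line with the fusion, and the culture was proliferating when it was sorted. Whether each cell was cycling was not tested. From the live cells, the 25% dimmest in GFP (low PLIN2-GFP) and the 25% brightest (high PLIN2-GFP) went 1 to a well into plates for SORT-seq, which counts 1 tag per mRNA molecule from its 3′ end by a unique molecular identifier (UMI). The 304 cells comprised 95 low and 84 high cells of plate 1 and 72 low and 53 high cells of plate 2, and the deposited annotation gave a cell cycle phase and a cluster for each.

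The sums of the 4 plate and category groups held between 778022 and 1029023 UMIs. High PLIN2-GFP NSPCs were deeper, with medians of 11709 and 14729 UMIs per cell on plates 1 and 2 against 7856 and 11955 in low cells. The 2 categories filled different rows of wells, and 0 rows held both, so row and category cannot be told apart. Both plates used the same set of well barcodes, of which 59 marked a cell on both, and the plates are separate samples. All 7 of the NSPC markers looked for had counts, with a summed level between 3827 and 4587 CPM (UMIs per 1000000 UMIs) in the 4 sums. Of the 7, *Vim*, the intermediate filament vimentin, differed between the categories in edgeR, with 2482 and 2935 CPM in high cells of plates 1 and 2 against 3052 and 3252 in low cells (log2 fold change -0.22 ± 0.06, adjusted p = 0.0405), and the other 6 were not called. Of the astrocyte markers, all 5 were in the table with a summed level of 129 to 194, and *Gfap* had 1 count in 1 sum and 0 in the other 3. Of 5 neuronal genes, 2 were in the table at 381 to 542, and *Map2* made up nearly all of that level. The 1 oligodendrocyte lineage gene in the table, of 5, summed to 7.89 to 18.0, the 2 endothelial genes of 3 to at most 6.81, and 0 of 4 microglial genes were in the table.

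Levels are given as CPM of a sum, scaled by TMM (trimmed mean of M-values) factors, and are not divided by gene length because each molecule gives 1 tag. The carriers ranged from 32.7 to 3075 CPM over all cells. *Fabp7* and *Dbi* together took 91.6% of the UMIs of the 7 genes, and the 7 genes together took 0.515% of all UMIs. *Fabp7* was 22nd and *Dbi* 52nd of the 15046 genes in total UMIs, and *Dbi* had 1645 CPM. *Fabp5* followed at 221 CPM (rank 705), then *Scp2* at 71.4 (2598), *Acbd6* at 57.7 (3158), *Acbd5* at 49.8 (3605) and *Acbd3* at 32.7 (5004). The order of the first 3 held in every plate and category sum, whereas the levels of *Acbd5* and *Acbd6* overlapped between sums and their order turned between the plates.

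*Fabp7* encodes the brain FABP and lies on chromosome 10 (GRCm38, chr10:57784881-57788450, plus strand). At least 1 UMI was found in 302 of 304 cells, and the median cell held 31 UMIs. Its count was 2368 in low and 3491 in high cells of plate 1, and 2494 and 2307 on plate 2. Scaled, the low sums had 3115 and 3028 CPM and the high sums 3395 and 2968, so that the categories overlapped. The mean was 3072 ± 61.2 (SD, n = 2 plates) in low cells and 3181 ± 302 in high cells.

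*Fabp5*, the epidermal FABP (chr3:10012548-10016607, plus strand), was found with at least 1 UMI in 212 of 304 cells. Its counts in low and high cells were 214 and 225 on plate 1, against 173 and 153 on plate 2, or 282 and 219 CPM and 210 and 197 CPM. High cells had the lower level on both plates, but the low level of plate 2 lay under the high level of plate 1. Of the cells with a value, 50.9% had a value that was not whole within 1e-06. Alevin can divide a molecule whose reads match several genes, and its part in each such value was not tested. In GENCODE release M21, 33.1% of the 31-base words of the *Fabp5* transcript also occurred in 5 processed pseudogenes, and the share with Gm6166 (chr9:57483963-57484371, plus strand) was 27.2%. None of the 5 had a row of its own. The last 90 coding bases of *Fabp5* before the stop codon are shown with the closest stretch of Gm6166, with capitals at the 2 bases that differ. They are the coding bases nearest to the 3′ end that was read, and the bases after the stop codon are not shown.
Fabp5: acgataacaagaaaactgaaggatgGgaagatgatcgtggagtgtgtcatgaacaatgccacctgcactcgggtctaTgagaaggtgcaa
Gm6166: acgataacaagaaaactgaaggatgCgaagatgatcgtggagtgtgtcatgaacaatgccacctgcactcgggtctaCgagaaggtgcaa
*Fabp7* shared 0 of its 31-base words with another gene, and 1.66% of its cell values were not whole.

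*Dbi* encodes the acyl-CoA binding protein, also called diazepam binding inhibitor, which holds long-chain acyl-CoA in the cytosol and whose secreted peptides act on GABA-A receptors (chr1:120113280-120121078, minus strand). It was found in 299 of 304 cells, with a median of 18 UMIs per cell, and 0% of its values were not whole. Its counts in low and high cells were 1260 and 1898 (plate 1) and 1245 and 1300 (plate 2). Scaled, the low sums had 1657 and 1512 CPM and the high sums 1846 and 1672, so that both high sums lay above both low sums. The mean was 1585 ± 103 in low and 1759 ± 123 (SD, n = 2 plates) in high cells.

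The 3 ACBD genes encode larger proteins with an acyl-CoA binding domain. ACBD3 is a Golgi scaffold, ACBD5 tethers peroxisomes to the endoplasmic reticulum, and ACBD6 takes part in protein acylation. *Acbd3* (chr1:180726043-180754204, plus strand) had 21 and 35 counts in low and high cells of plate 1 and 28 and 30 on plate 2. Its low levels of 27.6 and 34.0 CPM lay under its high level of 38.6 on plate 2 and just under that of 34.03 on plate 1. *Acbd5* (chr2:23068167-23115558, plus strand) had 34 low and 47 high counts on plate 1 and likewise 42 and 50 on plate 2, and its levels of 44.7 and 51.0 in low and 45.7 and 64.3 in high cells overlapped. *Acbd6* (chr1:155558120-155691330, plus strand) had 48 low and 63 high counts on plate 1 against 52 and 37 on plate 2. Both low sums were at 63.1 CPM and the high sums at 61.3 and 47.6. Each of these genes had at least 1 UMI in 85 (*Acbd3*), 109 (*Acbd5*) and 119 (*Acbd6*) of 304 cells, and the median cell had 0.

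*Scp2* (chr4:108043839-108144998, minus strand) had at least 1 UMI in 112 cells and a value above 0 in 202, and 63.9% of its values were not whole. Its 31-base words were shared to 41.5% with *Scp2-ps2* (chr9:123306600-123317998, minus strand), which is annotated as a processed transcript and had 55.0 UMIs of its own in the table against 248 for *Scp2*. The last 90 coding bases of *Scp2* occur in *Scp2-ps2* with 0 differences and are shown because reads from this stretch cannot be told apart.
Scp2: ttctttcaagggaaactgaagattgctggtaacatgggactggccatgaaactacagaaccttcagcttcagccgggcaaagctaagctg
Scp2-ps2: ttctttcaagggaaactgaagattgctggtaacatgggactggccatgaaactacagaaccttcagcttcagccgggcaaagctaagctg
The counts of *Scp2* in low and high cells came to 46 and 73 for plate 1 and to 50 and 78 for plate 2. The low sums had 60.5 and 60.7 CPM and the high sums 71.0 and 100.3, so that both high sums lay above both low sums, with a wide gap on plate 2 only. Values of *Scp2* and *Fabp5* are uncertain to the extent that the estimation divided molecules between copies.

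**Figure D1:**
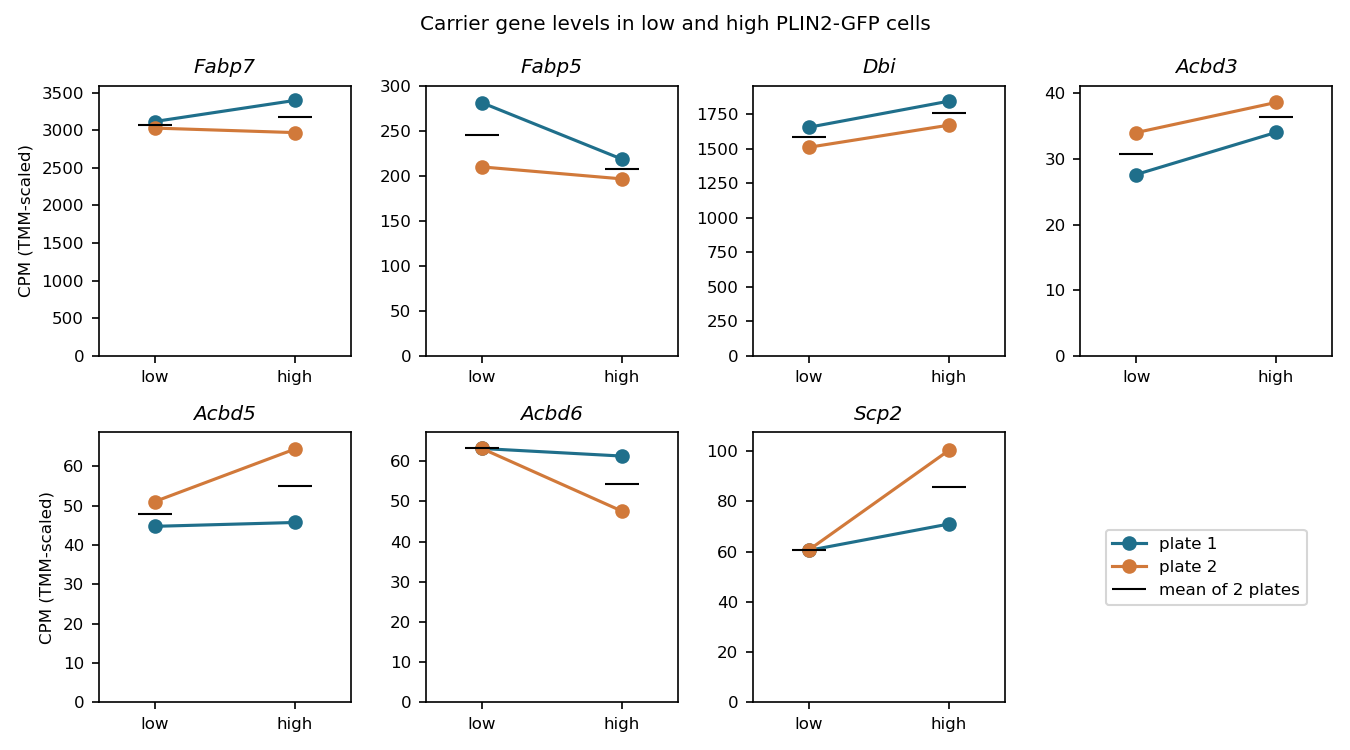
Level of each carrier gene (vertical axis, CPM, TMM-scaled, from 0, with its own scale per gene) in low and high PLIN2-GFP NSPCs; each point is the sum of the cells of 1 plate and category, lines join the sums of a plate and black bars are means of 2 plates. *Dbi* and *Scp2* were higher in the high sum of each plate, whereas the lines of *Fabp7* ran in opposite directions on the 2 plates.

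The GFP categories were compared to ask whether carrier transcripts differ with LD content. In edgeR's quasi-likelihood test with a plate term and p-values adjusted over 8348 genes by Benjamini-Hochberg, 0 of the 7 carriers were called at an adjusted p under 0.1, against a background of 0.886% of genes called higher and 1.26% called lower. DESeq2, which gave 5 of the 7 an adjusted p, called 0 as well, and 2 of the 7 (*Dbi* and *Scp2*) had an unadjusted p under 0.05 in edgeR. The groups of sums did not overlap for 4 of the 7 genes (*Dbi*, *Acbd3*, *Acbd6* and *Scp2*), against 31.8% of the genes tested. The median log2 fold change of the 7 was 0.15, against -0.0015 over all genes tested.

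The log2 fold change, high minus low, was 0.49 ± 0.21 (SE) for *Scp2* (adjusted p = 0.338) and 0.15 ± 0.07 for *Dbi* (adjusted p = 0.416). *Fabp5* had -0.24 ± 0.13 (adjusted p = 0.522) and *Fabp7* 0.05 ± 0.06 (adjusted p = 0.870). The differences of *Fabp7* had opposite signs on the plates, with ratios of high to low of 1.09 and 0.980. *Acbd3*, *Acbd5* and *Acbd6* had 0.24 ± 0.30, 0.19 ± 0.25 and -0.21 ± 0.24, and adjusted p-values between 0.848 and 0.870. With library size in place of TMM factors *Dbi* was called, at 0.22 and an adjusted p of 0.0348, a scaling that also turned the split of all called genes from 74 higher and 105 lower to 153 higher and 85 lower. Over the 8 alternatives the adjusted p of *Dbi* ranged from 0.0348 to 0.9999, and its log2 fold change was 0.05 in cells of the G1 phase only.

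Shares of cells with a UMI were taken with and without thinning, since high cells were deeper. Before thinning a cell needed a value of at least 1. Thinning first rounded each fraction up or down at random, so a value under 1 could count as a UMI. *Scp2* had a value above 0 in 202 cells and at least 1 UMI in 112. For genes with values that were not whole, a change on thinning may reflect this rule as well as depth. The part of each was not tested. *Scp2* was found in 41.7% (95% exact binomial interval 31 to 52.9) of high and 22.1% (14.2 to 31.8) of low cells of plate 1, and in 54.7% (40.5 to 68.4) and 37.5% (26.4 to 49.7) on plate 2. After each cell was thinned to 5000 UMIs, with 45 shallower cells left out, of which 31 were low and 14 high, *Scp2* was found in 28.8% of high and 26.4% of low cells of plate 1, and in 46.0% and 29.7% of those of plate 2. *Acbd3* kept a gap after thinning, with 19.2% of high (14 of 73) and 8.33% of low cells (6 of 72) on plate 1. On plate 2 it had 22.0% (11 of 50) and 12.5% (8 of 64), and before thinning 29.8% and 18.9%, and 41.5% and 27.8%. *Acbd6* went the other way in thinned cells, with 21.9% of high and 25% of low cells on plate 1 and 14% and 28.1% on plate 2. *Acbd5* went the way of *Acbd3*, with 20.55% and 13.9%, and 28% and 25%. No interval was taken for thinned shares. *Fabp5* was found in 71.4% of high and 70.5% of low cells of plate 1, and in 69.8% and 66.7% on plate 2. In thinned cells, under the rule for thinned counts, the order of *Fabp5* turned on both plates. A UMI was then found in 57.5% of high and 61.1% of low cells of plate 1, and in 50% of high and 53.1% of low cells of plate 2. Of its values before thinning 50.9% were not whole, and the part of the change of rule in this turn was not tested. The intervals cover counting error only.

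The phases G1, S and G2/M had been assigned by the authors from scores for S and G2/M genes, and the carriers are not genes by which such scores are usually made. In edgeR with a plate term, *Dbi* and *Fabp7*, the 2 abundant carriers, were called lower in S than in G1 phase. *Fabp5* and *Acbd5* were called lower in G2/M than in G1 phase. These 4 calls were lost in DESeq2 and with the plate left out of the model, as given below. Of the 7 carriers, 2 were called lower and 0 higher in S phase, against backgrounds of 5.19% and 7.56% of 7650 genes. In G2/M phase 2 were called lower and 0 higher, against 7.40% and 9.01%. The sums of G1 did not overlap those of S phase for 4 of the 7 genes, against 45.1% of all genes tested, and those of G2/M phase for 6 of the 7, against 46.1%. The median log2 fold change of the 7 was -0.29 in S and -0.46 in G2/M phase, against -0.03 and -0.01 over all genes tested.

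*Dbi* had 1405 and 910 counts in G1 cells of plates 1 and 2, 700 and 848 in S and 1053 and 787 in G2/M cells. Its level was 1928 and 1864 CPM in G1, 1540 and 1455 in S and 1790 and 1547 in G2/M phase, so that the 3 phases did not overlap each other. From G1 to S phase it fell by 0.34 on the log2 scale (SE 0.08, adjusted p = 0.00524), with S to G1 ratios of 0.799 and 0.781 on the 2 plates. From G1 to G2/M phase the log2 fold change was -0.18 ± 0.08 (adjusted p = 0.137).

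*Fabp7* had 3386 and 3466 CPM in G1, 3183 and 2680 in S and 3304 and 3041 in G2/M phase. Both S sums lay under both G1 sums, by a small margin on plate 1. From G1 to S phase it fell by 0.23 on the log2 scale (SE 0.07, adjusted p = 0.0433), and the ratio of S to G1 was 0.940 on plate 1 and 0.773 on plate 2. The log2 fold change from G1 to G2/M phase was -0.11 ± 0.07 (adjusted p = 0.379). The call of *Fabp7* in S phase was lost with library size in place of TMM factors (adjusted p = 0.146, of a range of 0.00872 to 0.519 over 8 alternatives), a scaling under which the called genes split into 682 higher and 242 lower in place of 578 and 397.

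*Fabp5* had 258 and 285 CPM in G1, 246 and 194 in S and 236 and 145 in G2/M phase. The drop from G1 to G2/M phase was uneven, with a ratio of 0.916 on plate 1 and 0.511 on plate 2, and the fitted log2 fold change was -0.49 ± 0.17 (adjusted p = 0.0554). *Acbd5* had 33 and 35 counts in G1, 29 and 42 in S and 19 and 16 in G2/M cells, or 45.3 and 71.7, 63.8 and 72.1, and 32.3 and 31.45 CPM. Both G2/M sums lay under all 4 others, and the log2 fold change from G1 was -0.83 ± 0.30 (adjusted p = 0.0779). Plate 2 alone gave -1.06 and plate 1 alone -0.47. The 4 phase calls were lost in DESeq2, where the adjusted p was 0.13 for *Dbi* and 0.519 for *Fabp7* in S phase and 0.694 for *Fabp5* and 0.914 for *Acbd5* in G2/M phase. They were also lost with the plate left out of the model, with adjusted p-values of 0.207, 0.41, 0.234 and 0.166 in the same order. The fitted log2 fold changes moved little, at -0.32, -0.21, -0.50 and -0.81 in DESeq2 and -0.34, -0.23, -0.49 and -0.83 without the plate. In thinned cells the calls of *Fabp5* and *Acbd5* were lost, with a log2 fold change of -0.51 ± 0.24 (adjusted p = 0.214) for *Fabp5* and of -0.41 ± 0.52 (adjusted p = 0.730) for *Acbd5*, and *Dbi* and *Fabp7* were called.

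The other carriers were not called in either phase. *Scp2* had 79.6 and 100.4 CPM in G1, 57.2 and 73.8 in S and 59.5 and 70.8 in G2/M phase, with log2 fold changes of -0.45 ± 0.24 (adjusted p = 0.259) and -0.46 ± 0.23 (adjusted p = 0.229). In thinned cells *Scp2* was called in S phase, at -1.13 and an adjusted p of 0.0779, the lowest over its alternatives, the highest being 0.9999. *Acbd6* was the only carrier with a higher mean in both S and G2/M than in G1 phase, with 57.6 and 36.9 CPM in G1, 90.2 and 53.2 in S and 47.6 and 78.6 in G2/M phase. Its G2/M value turned between the plates, at -0.28 on plate 1 and 1.07 on plate 2. *Acbd3* had 37.0 and 45.1 in G1, 17.6 and 42.9 in S and 35.7 and 21.6 in G2/M phase, from 8 to 27 counts each.

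Several other measures moved with the phases. The median mitochondrial share of UMIs was 14.0% and 13.8% in G1 cells of plates 1 and 2, 11.8% and 11.3% in S and 11.94% and 11.85% in G2/M cells. The median UMIs per cell were 8290 and 9825 in G1, 10994 and 15301 in S and 9565 and 12902 in G2/M cells. The summed level of the 5 astrocyte markers was 257 and 207 in G1, 174 and 142 in S and 127 and 124 in G2/M cells, with *Gfap* at 1 count at most. Of the astrocyte markers tested, *Slc1a2* was called lower in S and in G2/M than in G1 phase (adjusted p = 0.0392 and 0.0109 in edgeR). The part of the astrocyte markers in the phase differences was not tested. With the mitochondrially encoded genes left out, 2 carriers were called in each phase, and with the GFP category as a further term over 12 sums, 2 were called in S and 3 in G2/M phase, *Dbi* being the third.

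**Figure D2:**
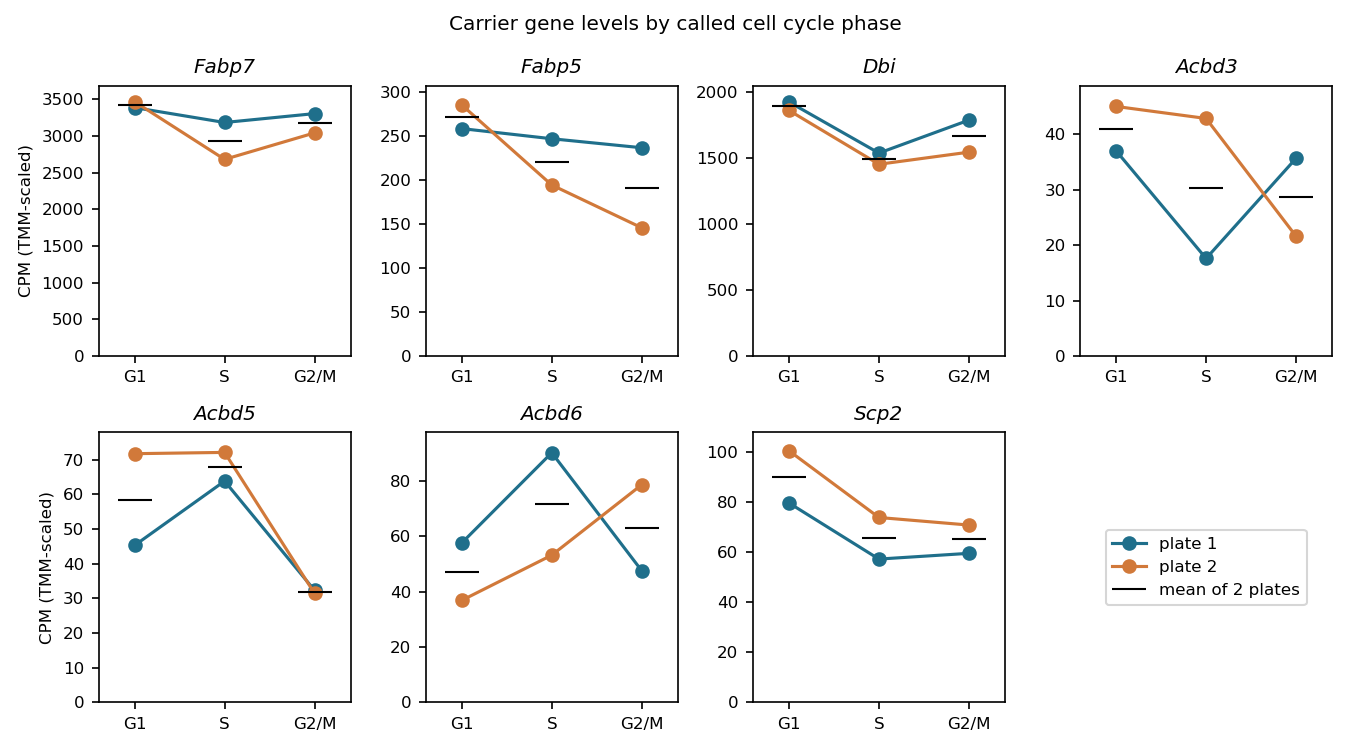
Level of each carrier gene (vertical axis, CPM, TMM-scaled, from 0, with its own scale per gene) in cells of G1, S and G2/M phase; points are sums over the cells of 1 plate, lines join a plate's sums and black bars are means of 2 plates. *Dbi* dips in S phase on both plates, and *Acbd5* falls to 32.3 and 31.45 in G2/M phase.

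**Figure D3:**
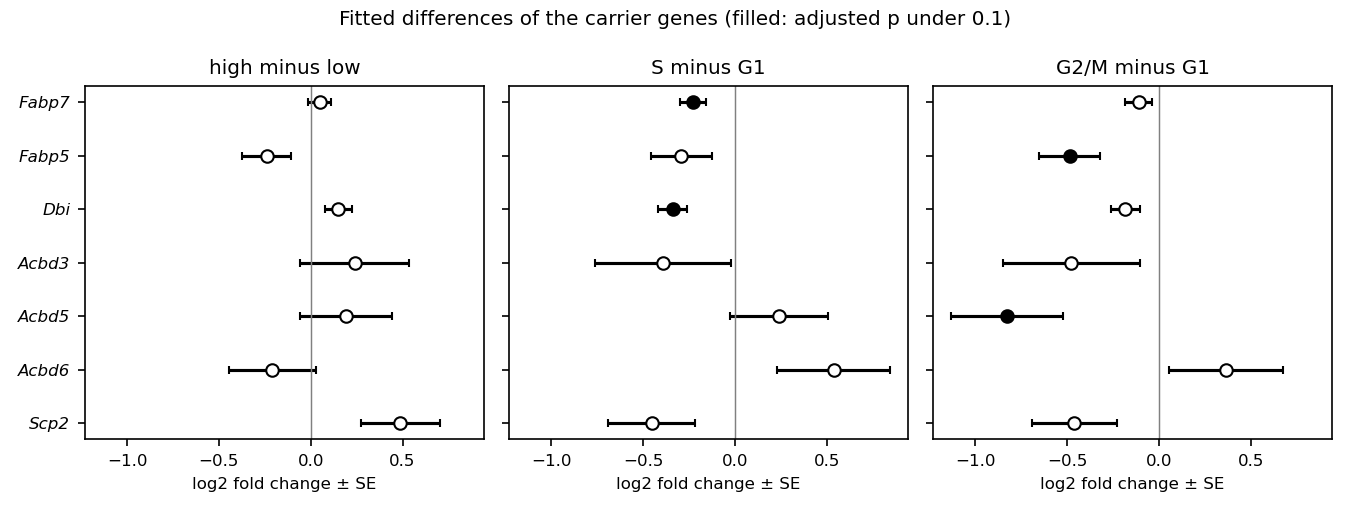
Fitted log2 fold changes of the 7 carriers (horizontal axis, with bars of 1 SE) for high minus low PLIN2-GFP, S minus G1 and G2/M minus G1; filled points had an adjusted p under 0.1 in edgeR. No point is filled in the first panel, *Fabp7* and *Dbi* are filled for S and *Fabp5* and *Acbd5* for G2/M phase.

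Because phase and GFP category crossed in the data, the 2 categories were also compared within each phase. Of the low cells, 49 on plate 1 and 31 on plate 2 were in G1, 21 and 18 in S and 25 and 23 in G2/M phase, and of the high cells 32 and 20 were in G1, 20 and 18 in S and 32 and 15 in G2/M phase. *Dbi* was at 1884 and 1942 CPM in low and high G1 cells of plate 1 and at 1708 and 1808 on plate 2. In G2/M cells it was at 1364 and 1937 on plate 1 and at 1352 and 1645 on plate 2, and in S cells at 1331 and 1570, and 1358 and 1503. The high sum was thus the higher one in each phase of each plate, by 0.04 and 0.08 on the log2 scale in G1, 0.24 and 0.15 in S and 0.50 and 0.28 in G2/M phase. *Scp2* likewise had the higher high sum in each of these pairs, by 0.111 to 0.825 on the log2 scale, from 7 to 30 counts per sum. In cells thinned to 5000 UMIs, with all phases together, the log2 fold change of *Scp2* was 0.21 ± 0.31 (adjusted p = 0.904 in edgeR). *Fabp5*, *Acbd3*, *Acbd5* and *Acbd6* had differences of both signs over these pairs. The share of all genes with the same sign in every pair was not taken. *Fabp7* had 2663 and 3502 CPM in low and high G2/M cells of plate 1 and 2824 and 3042 on plate 2, but 3392 and 3317, and 3277 and 3242, in G1 cells. On the scale of the filtered fit the low and high G1 sums of plate 2 were at 3539 and 3549, so that their order turned. In S cells the plates went opposite ways, with 2700 and 3281 CPM on plate 1 and 2748 and 2545 on plate 2. The test of whether the difference between categories varied with phase called 0 of the 7 carriers in edgeR, against 0.0487% of 6163 genes, and 0 of the 7 had an unadjusted p under 0.05. The lowest adjusted p of the 7 in edgeR was 0.975.

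**Figure D4:**
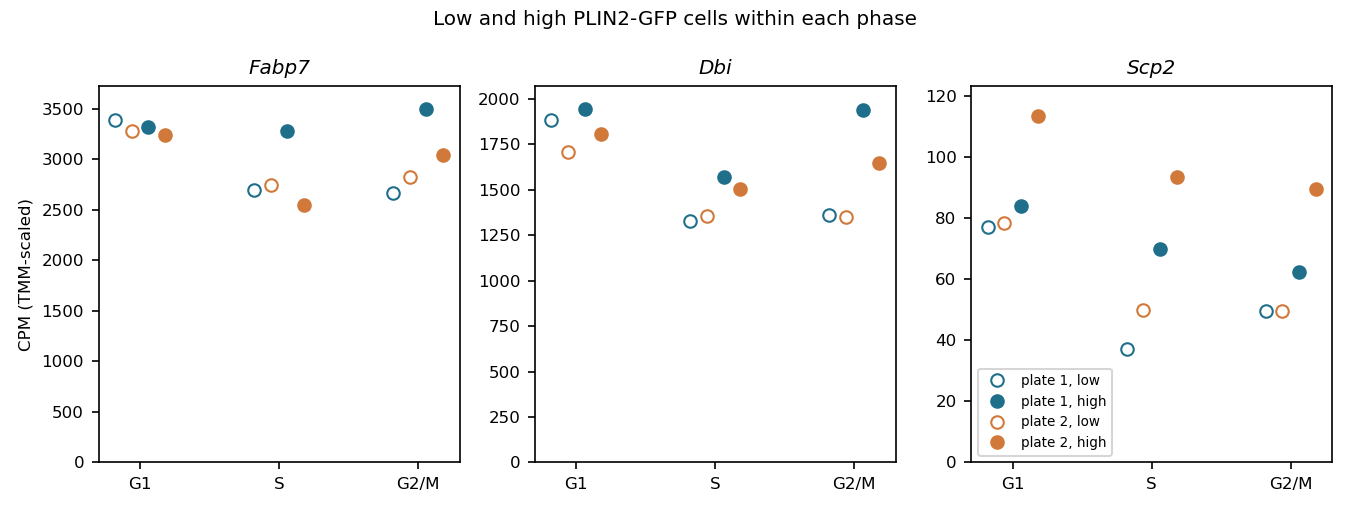
Levels of *Fabp7*, *Dbi* and *Scp2* (vertical axis, CPM, TMM-scaled over all genes without a filter, from 0) in low (open) and high (filled) PLIN2-GFP NSPCs of each phase, 1 point per plate. In G2/M phase the high sums of *Dbi*, 1937 and 1645, stand above the low sums, 1364 and 1352.

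Between the plates 0 of the 7 carriers were called in edgeR, against 2.93% of genes called higher and 3.81% called lower on plate 2, and 1 of the 7 had an unadjusted p under 0.05. That gene was *Fabp5*, at -0.29 ± 0.13 (plate 2 minus plate 1, adjusted p = 0.224). The plates held cells of 1 line, so that p-values take in no spread between lines or animals. With 1 residual degree of freedom for categories and plates, those edgeR p-values rest on a spread shared over all genes. They do not measure the spread of a gene's own sums, and the phase fits, with 2, borrow from other genes as well. The spread between these sums may be technical.

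The 2 clusters of the deposited annotation were described without a test, since they were made from the same cells. Cluster 0 held 61 high and 31 low cells on plate 1 and 40 and 23 on plate 2, and cluster 1 held 23 and 64, and 13 and 49. *Acbd5* was at 51.7 and 68.0 CPM in cluster 0 and 38.3 and 44.8 in cluster 1, and *Scp2* at 75.4 and 88.7 against 58.0 and 69.3. *Acbd6* went the other way, with 58.1 and 46.1 in cluster 0 and 66.1 and 66.6 in cluster 1. *Fabp7* was at 3354 and 3193 in cluster 0 and 3181 and 2756 in cluster 1. The clusters overlapped for *Dbi* (1860 and 1625 against 1659 and 1540), *Fabp5* (226 and 203 against 265 and 204) and *Acbd3* (31.2 and 41.5 against 31.3 and 29.9).

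Over single cells *Fabp7* spread widely. In CPM of a cell's own UMIs, the cells of plate 1 had a 10th percentile of 1315, a median of 2903 and a 90th percentile of 5800, and those of plate 2 had 1512, 2955 and 5068. In thinned cells its Fano factor, the variance divided by the mean, was 4.72 and 3.56 on plates 1 and 2. This measure grows with the mean, which was 16.4 UMIs for *Fabp7* and 1.12 for *Fabp5* in thinned cells of plate 1. Relative to its median *Fabp5* had the wider range, with a 10th percentile of 0, a median of 184 and a 90th percentile of 582 CPM on plate 1. Over all cells the median was 2 UMIs of *Fabp5* against 31 of *Fabp7*, and the part of counting error in this range was not tested. The Fano factor of *Dbi* was 2.04 and 1.40 and that of *Fabp5* 1.54 and 1.84, and the median over the 786 and 801 genes with a thinned mean of at least 1 UMI was 1.26 and 1.23. The Fano factors of the ACBD genes and *Scp2*, at thinned means under 0.5 UMIs, lay between 0.919 and 1.20, near the value of 1 that counting alone gives.

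*Fabp7* and *Dbi* had the highest positive rank correlation among the pairs of carriers over all cells of each plate, and over thinned cells of plate 1. Spearman's rho was 0.379 over the 179 cells of plate 1 and 0.291 over the 125 cells of plate 2, and 0.354 over 145 and 0.223 over 114 thinned cells. In the thinned cells of plate 2 *Acbd5* and *Acbd6* had 0.228, against -0.040 on plate 1. *Fabp7* and *Acbd6* had negative values of -0.124 and -0.312 on plates 1 and 2 (-0.018 and -0.176 thinned). Over all cells of plate 2 theirs was thus larger in size than that of *Fabp7* and *Dbi*. On that plate the rho with the UMIs of a cell was -0.250 for *Fabp7* and 0.413 for *Acbd6*. Within single phases the rho of *Fabp7* and *Dbi* lay between 0.159 and 0.514. All values of a plate come from 1 library, and low and high cells of all phases are pooled in them. Of the 2498 other genes found in at least 50% of the cells, ranked by the lower of the 2 plates' rho, *Dbi* was 2nd for *Fabp7* and *Fabp7* 3rd for *Dbi*, and 6th and 2nd in thinned cells. *Fabp5* did not follow *Fabp7*, with rho of 0.149 and -0.075 (0.075 and 0.021 thinned), nor *Dbi*, with -0.005 and -0.091 (-0.095 and -0.113 thinned). *Scp2* and *Dbi* had 0.214 and 0.179, which were 0.041 and 0.144 in thinned cells.

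**Figure D5:**
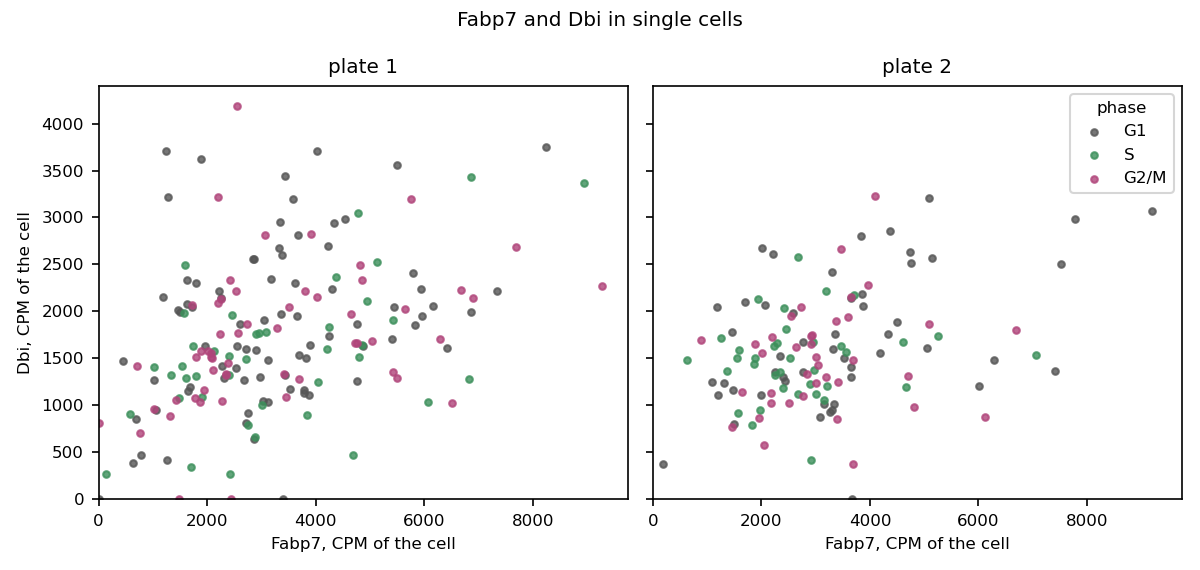
*Fabp7* (horizontal) and *Dbi* (vertical) in single cells, each as CPM of the cell, in panels for plate 1 (179 cells) and plate 2 (125 cells), coloured by phase. The cloud rises to the right in both panels, with rho of 0.379 and 0.291.

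The genes whose values over cells were most like those of each carrier were found by the same ranking. For *Fabp7* they were *Slc6a11*, a GABA transporter of astroglia (0.367 and 0.300 on plates 1 and 2), *Dbi*, and *Atp5g3*, a subunit of the mitochondrial ATP synthase (0.268 and 0.348). In thinned cells *Slc6a11* was 4th and *Atp5g3* 1st of 2498. For *Dbi* they were *Cox7c*, a subunit of cytochrome c oxidase (0.390 and 0.331), *Atp5pb*, another subunit of ATP synthase (0.382 and 0.293), and *Fabp7*, with *Cox7c* 4th and *Atp5pb* 67th in thinned cells. Those of *Fabp5*, namely *Cavin3*, *Slirp* and *Ldha*, had rho of at most 0.312 and fell to ranks 43, 85 and 647 in thinned cells. Those of *Scp2*, namely *Prelid1*, *Ndufs3* and *Kcnj10*, fell to 81, 126 and 1374.

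The sequence upstream of *Fabp7* is shown because it was the most abundant carrier and was called in S phase. It is the RefSeq window of GRCm38.p6 before the start, without bases inside the GENCODE gene body, at chr10:57784673-57784880 (plus strand). Both strands were searched for the CCAAT box, a common promoter element, and capitals mark it or its reverse complement ATTGG.
Fabp7: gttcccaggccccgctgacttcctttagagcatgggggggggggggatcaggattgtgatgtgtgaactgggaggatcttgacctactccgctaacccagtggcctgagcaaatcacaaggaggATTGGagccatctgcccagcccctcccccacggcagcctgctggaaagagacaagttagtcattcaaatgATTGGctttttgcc
The 208 bases of *Fabp7* held 2 matches, against 29.6% of all windows of that length with at least 1. Upstream sequences of the other carriers, *Dbi* among them, are not given here, so the matches say nothing of the carriers as a group.

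The genes around the carriers were taken from lists by role. Of 14 genes of fatty acid uptake and activation, 12 were in the table and 5 were tested between the GFP categories. *Acsbg1*, a bubblegum-type acyl-CoA synthetase that makes the ligand of the ACBD proteins, was the 1 called. It was higher in high cells, with 499 and 668 CPM on plates 1 and 2 against 435 and 455 in low cells (0.38 ± 0.10, adjusted p = 0.0212). It was called lower in S (-0.46 ± 0.12, adjusted p = 0.0107) and in G2/M phase (-0.63 ± 0.12, adjusted p = 0.000296) than in G1. With the plate left out of the model, 0 genes were called higher in high cells, so *Acsbg1* was not called there. *Acsl3*, the acyl-CoA synthetase known from nascent LDs, was called higher in G2/M phase, at 197 and 224 against 145 and 129 CPM in G1 (0.60 ± 0.17, adjusted p = 0.0149). The list's median over the genes tested was -0.06 for high minus low, 0.06 for S and -0.64 for G2/M phase.

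Of 8 other proteins with an acyl-CoA binding or SCP2 domain, 5 were in the table and 3 were tested, and their medians were 0.02 for high minus low, -0.28 in S and -0.23 in G2/M phase. *Hsdl2*, a peroxisomal protein with an SCP2 domain, was called lower in G2/M than in G1 phase, with 90.1 and 49.1 CPM against 143 and 127 (-0.93 ± 0.22, adjusted p = 0.00339). *Eci2*, a peroxisomal isomerase with an acyl-CoA binding domain, was called lower on plate 2 than on plate 1 (-0.70 ± 0.19, adjusted p = 0.0092) and in none of the other 3 comparisons. Of 12 other intracellular lipid binding proteins, which include the remaining FABPs, 3 were in the table with 26.5 UMIs in all, and 0 reached a test. Among 10 protein partners of the acyl-CoA carriers, 7 were tested and 0 called in any of these comparisons, with medians of -0.06, -0.27 and -0.06 for high minus low, S and G2/M phase. Of 12 nuclear receptors for fatty acids or retinoids 4 were tested, and of 13 GABA-A receptor subunits 1 was tested, and 0 of either list were called.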

How the data were processed

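Single NSPCs of 2 plates were measured by SORT-seq. Per the labels and the study's methods, the authors assigned reads with Salmon alevin to GRCm38 (versions and annotation release not given in the sources used here), removed cells by mitochondrial share and doublets, and deposited estimated counts of UMIs per gene and cell, without normalization. Their table of cells, as deposited, holds the count of genes, the mitochondrial percent, S and G2/M score, phase, category and cluster. Its 2 category names and 3 phase names were used as written. Count columns carry no names and were joined to cells by total (within 0.01) and number of genes, with 0 left unjoined.

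Estimated counts were summed per plate and category, phase or cluster and rounded. edgeR 4.0.16 (R 4.3.3) was fitted over all genes passing filterByExpr, with TMM factors and a plate term, and DESeq2 1.42.0 was an alternative. Genes under a Benjamini-Hochberg adjusted p of 0.1 were called. The SE is the size of the log2 fold change over the root of F. Residual degrees of freedom were 1 for categories and plates, 2 for phases and 5 for the 12 sums. Low and high sums of a number come from 1 plate, and their plate deviations had a correlation of 0.300 over 8348 genes (0.195 to 0.224 between phases), so the plate pairs them. Correlations are Spearman's, within plates, on counts divided by cell totals and on cells thinned to 5000 UMIs (numpy 2.4.6, scipy 1.17.1). Before thinning, values that were not whole were rounded up or down at random, with the fraction as the chance of rounding up. The edgeR fits of high against low and of G2/M against G1 phase were also run on simulated counts. These were drawn from the means and spread that edgeR had fitted to the same sums. Such a run cannot show whether that spread is too small, and DESeq2 was not run on these counts.

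The members, gene lists and alternatives were chosen with earlier results of these data known. Named are the 8 listed genes, genes of the lists that were called, and the 3 genes most like each carrier found in at least 50% of cells. Leaving out mitochondrially encoded genes was added after the phase groups were seen to differ. Deposited comparisons were not used, and the barcode list was not used. Gene positions and sequences are from GENCODE M21 (GRCm38) and RefSeq (GRCm38.p6).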

Additional observations from a re-analysis of the deposited data

Results flagged for a closer look

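*Hes1*, a Notch target gene among the NSPC markers and not a carrier, was 1 of 3 genes whose difference between GFP categories varied with phase in edgeR's quasi-likelihood test over 12 sums (adjusted p = 0.0529). In S cells the low sums of plates 1 and 2 were at 52.3 and 78.9 CPM and the high sums at 208 and 223 CPM, from 9 and 21 against 56 and 67 counts. In G1 cells the low sums were at 189 and 177 CPM and the high sums at 194 and 138 CPM. In G2/M cells the plates went opposite ways, with 193 and 98.2 CPM in low and high cells of plate 1 and 125 and 180 on plate 2. These levels are on the scale of the filtered fit over 12 sums.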

How the results depend on the processing

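High against low, 0 carriers were called under every alternative tested except library size, which called 1 (*Dbi*). In S phase 2 were called with RLE size factors, without a filter, with 12 sums and without mitochondrially encoded genes, and 3 in thinned cells, but 1 with library size only, 0 in DESeq2 and 0 without the replicate block. In G2/M phase 2 or 3 were called with library size, RLE factors, 12 sums or no mitochondrially encoded genes, but 1 without a filter on low counts, 0 in thinned cells, 0 in DESeq2 and 0 without the replicate block. The plate and interaction comparisons called 0 with library size only. Of 222 values of single carriers under alternatives, 4 turned sign: in G1 cells only, high minus low was 0.0273 for *Fabp5* and -0.0364 for *Fabp7*; with 1 replicate left out, *Fabp7* ranged from -0.0177 to 0.15, and *Acbd6*, G2/M minus G1, from -0.28 to 1.07. Leaving out a plate leaves 1 sum a group, so no test was made and no count given. Calls of genes other than the carriers, such as *Vim*, *Acsbg1* and *Hes1*, were not followed gene by gene through the alternatives. Counts over all genes moved by more than 1.5 times: high against low, from 179 to 1 without the block, 74 in thinned cells, 8 in G1 cells and 10 in DESeq2; in S phase from 975 to 444, 329 and 190 without the block, in thinned cells and in DESeq2; and in G2/M phase from 1255 to 653, 539 and 303. The cause of these changes was not tested. Thinned cells dropped *Acbd3* below the filter in the phase fits, and depth limits all values of the ACBD genes, whose sums hold 8 to 63 counts per plate and category or phase and as few as 3 per category and phase.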
